A study of Homo sapiens with 12 samples.

Results

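The p53 target genes described here are 31 genes that the transcription factor p53 is known to switch on in response to DNA damage and other stress. They were chosen by name, with earlier results of these data known. Their probes were found through the platform annotation, by current or older symbol. Of the 31 genes, 29 had a probe in the table used, with 44 probes among them, and 24 passed a filter on dim probes and were tested among 12150 genes in all. Expression of BTG2 and FDXR was not analysed here. Expression was measured on 12 Illumina bead arrays of THP-1, an established human monocytic leukaemia line. CRISPR constructs in these cells were aimed at p21, the cell cycle inhibitor that CDKN1A encodes, at the microRNA miR-150, or at nothing (non-targeting), and there were 2 lines per target. NT-2 and NT-3 were non-targeting, miR150-3 and miR150-4 were targeted at miR-150, and p21-2 and p21-3 at p21. The labels do not say whether the lines of a target carry the same guide. A lentivirus then brought in the transcription factor KLF4 or was empty (empty control virus, ECV), so that the 12 arrays form 6 groups of 2. All cells thus carried a CRISPR construct and a lentivirus, and RNA was taken 5 days after infection, with the CRISPR cells 17 days past selection. Whether a line is 1 clone or a separate culture is not stated, so the spread behind each p-value may be technical.

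In most cells p53 is kept scarce by MDM2, a ubiquitin ligase that is itself a p53 target, so that the pathway limits itself. When DNA is damaged, p53 is stabilised and raises genes that halt the cell cycle, repair DNA, adjust metabolism or start apoptosis, and CDKN1A is the best known of these. THP-1 is reported to make no functional p53, and many of the genes listed are also driven by other factors. KLF4 binds CACCC and GC-rich elements and is known from other cells to induce CDKN1A.

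The deposited values are log2 levels normalized between arrays, and a probe was kept when it lay above 7.26, an estimate of the background level, on at least 2 arrays. Of 10 markers of monocytic leukaemia cells, 9 had a probe and 8 of these lay above that level on all 12 arrays, with LYZ at a mean log2 level of 14.37; MPO was the dimmest, at 7.27. Of the probed markers of T cells (5), B cells (4), epithelium (5), fibroblasts (5) and erythroid cells (4), 0 did, the highest mean being CD79A at 7.34. The NT-2 array with KLF4 and the NT-3 array with KLF4 differed more than the arrays of any other group, with a root mean square SD over genes of 0.192 against 0.0902 to 0.111 in the other 5 groups. Where leaving out either changed a call, both values are given. In bulk RNA, fewer cells of a type and less RNA per cell cannot be told apart.

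With KLF4 virus, p53 targets were called in both directions, at shares near those of all genes. Averaged over the 3 CRISPR targets, SERTAD1, TOB1, PMAIP1, TIGAR, RRM2B and SESN1 rose, and CCNG1, AEN, TRIAP1, BAX, MDM4 and XPC fell. The largest member changes were a 1.65-fold rise of SERTAD1 and a 1.5-fold fall of CCNG1. In all, 6 of 24 tested members rose and 6 fell at an adjusted p under 0.05 (limma, Benjamini-Hochberg over 12150 genes), against 18.2% of all genes that rose and 23.1% that fell. The called members were 50% of those tested, near the 41.3% of all genes called, and the median log2 difference was 0.02 for the members and -0.01 for all genes. No member changed 2-fold, a size that 162 genes (1.33%) passed upward and 27 (0.222%) downward. CDKN1A, listed with the other reported p53 targets, was among them at 5.96-fold (log2 difference 2.58, SE 0.116, adjusted p = 9.1e-10), higher in 6 of 6 lines. The KLF4 arrays all lay above the ECV arrays for 4 members and all below them for 4, against 11.3% and 13.5% of all genes.

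**Figure D1:**
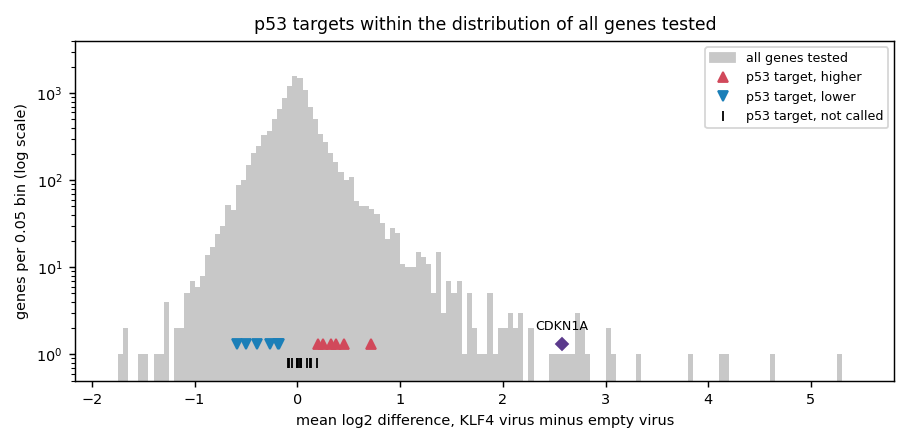
The grey histogram gives the mean log2 difference between KLF4 and empty virus for all 12150 genes tested, with the number of genes on a log scale, and the markers give the 24 tested p53 targets (red, higher; blue, lower; black ticks, not called) and CDKN1A. All tested p53 targets lie between -0.58 (CCNG1) and 0.72 (SERTAD1), while CDKN1A lies at 2.58.

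The genes called in the same direction within each of the 3 CRISPR targets were TOB1 and SERTAD1, which rose, and CCNG1 and AEN, which fell. Their promoters are shown because these members were called within all 3 targets. Each is given as the 250 bases before the annotated start, 5′ to 3′ on the gene's strand, from RefSeq (GRCh38.p14). Capitals mark CACCC on either strand in TOB1 and SERTAD1, and a match to the p53 consensus decamer, the building block of a p53 binding site, in AEN. The windows are chr17:50867979-50868228 (minus strand) for TOB1, chr19:40425993-40426242 (minus strand) for SERTAD1, chr5:163437321-163437570 (plus strand) for CCNG1 and chr15:88621090-88621339 (plus strand) for AEN.
TOB1: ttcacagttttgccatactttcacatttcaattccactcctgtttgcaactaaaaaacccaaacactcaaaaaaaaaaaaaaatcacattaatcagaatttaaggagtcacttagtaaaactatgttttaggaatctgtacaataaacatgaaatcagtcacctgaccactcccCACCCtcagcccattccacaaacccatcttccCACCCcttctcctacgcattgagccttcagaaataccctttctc
SERTAD1: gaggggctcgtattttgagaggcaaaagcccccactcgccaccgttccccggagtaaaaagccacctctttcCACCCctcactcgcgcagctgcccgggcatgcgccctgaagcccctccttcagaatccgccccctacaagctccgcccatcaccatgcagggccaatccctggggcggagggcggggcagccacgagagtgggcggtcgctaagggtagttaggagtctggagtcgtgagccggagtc
CCNG1: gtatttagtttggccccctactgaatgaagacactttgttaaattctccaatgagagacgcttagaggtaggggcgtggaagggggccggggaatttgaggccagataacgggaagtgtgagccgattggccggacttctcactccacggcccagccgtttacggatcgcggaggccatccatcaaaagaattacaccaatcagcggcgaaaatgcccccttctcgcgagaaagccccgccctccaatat
AEN: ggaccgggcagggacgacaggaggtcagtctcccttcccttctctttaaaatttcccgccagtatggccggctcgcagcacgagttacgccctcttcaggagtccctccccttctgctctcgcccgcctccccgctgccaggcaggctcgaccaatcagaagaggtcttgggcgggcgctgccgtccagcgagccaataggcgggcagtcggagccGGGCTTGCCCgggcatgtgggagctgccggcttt
TOB1 holds 2 CACCC runs and SERTAD1 holds 1, while the CCNG1 and AEN windows hold 0. CACCC stood in 53.7% of all 27305 promoter windows of this length. It stood in 3 of the 5 windows of members that rose, in 2 of the 6 of members that fell and in 6 of the 8 of members tested and not called. CACACCC, which overlaps CACCC, stood in 2 of the 25 member windows and in 6.52% of all windows. The p53 consensus decamer stood in 3 member windows, those of AEN, PLK2 and FDXR, and in 5.53% of all windows. The decamer reads the same on both strands, and a match is a run of letters, not a shown binding site.

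The feedback regulators of p53 were CCNG1, MDM4, MDM2 and PPM1D. CCNG1 encodes cyclin G1, which recruits a phosphatase to MDM2. With ECV its log2 levels were 11.24 in NT-2, 11.23 in NT-3, 11.34 and 11.27 in miR150-3 and miR150-4, 11.22 in p21-2 and 11.32 in p21-3. With KLF4 they were 10.29, 10.61, 10.90, 10.75, 10.79 and 10.77 in the same order. Every KLF4 array lay below every ECV array, and NT-2 was the lowest. As a log2 difference, CCNG1 fell by 0.58 (SE 0.0602, adjusted p = 3.1e-06), lower in 6 of 6 lines. A second CCNG1 probe was dim, above the background level on 2 arrays, and its difference of -0.09 did not pass a fit of all kept probes (adjusted p = 0.162). With the mean of both probes in its place the change of CCNG1 was -0.34.

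MDM4, the partner of MDM2 that masks the activation domain of p53, read 7.85, 7.73, 7.68, 7.69, 7.70 and 7.53 with ECV in the same order of lines. The KLF4 arrays read 7.63, 7.45, 7.45, 7.44, 7.53 and 7.56, and the ranges overlapped. It fell by 0.19 (SE 0.0534, adjusted p = 0.0117), lower in 5 of 6 lines, and in p21-3 it differed by 0.03. MDM2 itself lay near the background, with levels from 7.19 to 7.41 that passed 7.26 on 4 of 12 arrays, and its difference of 0.04 did not pass (adjusted p = 0.600). The other MDM2 probe was not kept. PPM1D, a phosphatase (WIP1) that removes the marks of damage signalling, read 8.39, 8.47, 8.36, 8.40, 8.40 and 8.42 with ECV. Under KLF4 the levels were 8.30, 8.49, 8.42, 8.46, 8.71 and 8.64, highest in the p21 lines. The mean difference of 0.10 did not pass (adjusted p = 0.151), while within p21 lines it rose by 0.27 at the edge of the threshold (SE 0.0881, adjusted p = 0.05). With the line as a block that call ended (adjusted p = 0.0609). It also ended with normexp background correction (0.0716), with trend and robust variance (0.0720) and in the fit of all kept probes (0.0579).

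Among genes of cell cycle and growth control, SERTAD1 and TOB1 rose and 4 of the 6 tested did not pass. The share called was 33.3%, against 41.3% of all genes. SERTAD1, a regulator of CDK4 activity and of E2F transcription, had ECV levels of 9.10 in NT-2, 8.96 in NT-3, 8.98 and 8.79 in miR150-3 and miR150-4, and 8.93 and 8.90 in p21-2 and p21-3. With KLF4 these were 10.07, 9.64, 9.50, 9.80, 9.29 and 9.69. The 2 sets of arrays did not overlap, and the rise was largest in miR150-4 (1.01) and smallest in p21-2 (0.37). The mean rise was 0.72 (SE 0.0882, adjusted p = 1.5e-05), which ranks 338th from the top of 12150 genes. TOB1, an antiproliferative protein that recruits the CCR4-NOT deadenylase, read 7.73, 7.89, 7.88, 7.78, 7.88 and 7.85 with ECV. In the same lines the KLF4 values were 8.29, 8.27, 8.34, 8.27, 8.33 and 8.25, with no overlap. This was the most even change across lines among the members that changed, from 0.38 in NT-3 to 0.56 in NT-2. Its mean rise was 0.46 (SE 0.0501, adjusted p = 5.5e-06).

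BTG1, of the same antiproliferative family as TOB1, ran from 11.64 to 12.03 and its difference of -0.08 did not pass (adjusted p = 0.208). GADD45A, a stress protein of cell cycle arrest and DNA repair, ran from 7.95 to 8.41, with a difference of 0.03 (adjusted p = 0.783). Its other kept probe differed by -0.15 and passed in the fit of all kept probes (adjusted p = 0.0378), so the direction of GADD45A depends on the probe. ZMAT3, an RNA-binding zinc finger protein, had the widest range of differences between lines among the tested members, from -0.30 in p21-2 to 0.63 in NT-2. Its brightest probe read 12.09 with ECV and 12.72 with KLF4 in NT-2. In the other lines the KLF4 values, from 11.59 to 11.99, were 0.19, 0.03, 0.30 and 0.18 below the ECV values in NT-3, miR150-3, p21-2 and p21-3, and 0.03 above in miR150-4. The mean was -0.01 (SE 0.119, adjusted p = 0.968). Of the 2 other ZMAT3 probes, both dimmer, 1 was higher with KLF4 in 6 of 6 lines and passed (0.20, adjusted p = 0.00775) and the other differed by 0.07 (adjusted p = 0.349). TP53INP1, which promotes autophagy and death, lay near the background at 7.15 to 7.41 and differed by -0.09 (adjusted p = 0.218). PLK2 and PLK3, polo-like kinases of the stress response, were not kept, at 6.74 to 7.16 and 7.004 to 7.27.

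Apoptosis genes went both ways, with 1 of 6 tested members higher and 3 lower, where 18.2% of all genes were higher and 23.1% lower. PMAIP1, the BH3-only protein NOXA, read 8.86 and 8.82 with ECV in NT-2 and NT-3, 9.03 and 8.88 in the miR-150 lines and 8.84 and 8.87 in the p21 lines. KLF4 values were 9.69, 9.20, 9.26, 9.13, 9.03 and 9.25. NT-2 with KLF4 stood above the rest, and the lowest KLF4 array met the highest ECV array. PMAIP1 rose by 0.38 (SE 0.0775, adjusted p = 0.00128), and its second kept probe by 0.20 (adjusted p = 0.0142). AEN, a nuclease that digests DNA and RNA in dying cells, read 10.15, 9.99, 10.12, 10.13, 9.92 and 10.20 with ECV. The KLF4 arrays read 9.40, 9.62, 9.69, 9.75, 9.64 and 9.43, with no overlap. It fell by 0.50 (SE 0.0663, adjusted p = 3.3e-05), and by 0.19 in its other probe (adjusted p = 0.0132). The fall was 0.76 in NT-2 and 0.77 in p21-3 and between 0.28 and 0.43 in the other 4 lines.

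TRIAP1, a small mitochondrial protein that restrains apoptosis, read 9.90, 10.03, 10.01, 9.97, 10.11 and 10.05 with ECV. Under KLF4 the levels were 9.29, 9.71, 9.70, 9.89, 9.60 and 9.51, all below the ECV arrays. It fell by 0.39 (SE 0.0699, adjusted p = 0.00040), least in miR150-4 (-0.08) and most in NT-2 (-0.61). BAX, which opens the outer mitochondrial membrane, read 8.23, 8.37, 8.30, 8.08, 8.19 and 8.29 with ECV. In the same lines the KLF4 values were 7.95, 8.02, 7.81, 8.08, 8.08 and 7.91. BAX fell by 0.27 in its brightest probe (SE 0.0646, adjusted p = 0.00390). In miR150-4 the 2 BAX values were nearly equal, and the sets of arrays barely separated. Its other kept probe had the opposite sign (0.08, adjusted p = 0.328), and with the mean of both probes the call ended (-0.10, adjusted p = 0.141). BBC3, the BH3-only protein PUMA, ran from 7.76 to 7.95 and did not pass (difference -0.00, adjusted p = 0.962). APAF1, the scaffold of the apoptosome, was higher in 5 of 6 lines by a mean of 0.19 and did not pass (SE 0.0855, adjusted p = 0.0951). PERP, a desmosomal and apoptosis protein, and PHLDA3, an AKT inhibitor, had no kept probe, with levels up to 7.24 and 7.18.

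The 3 death receptors did not pass, where 41.3% of all genes did. TNFRSF10B, the TRAIL receptor DR5, was the one well above background, at 9.61 to 9.86 with ECV and 9.66 to 9.92 with KLF4. It was higher in 6 of 6 lines by a mean of 0.13 (SE 0.065, adjusted p = 0.132), but by 0.26 in NT-2 and 0.31 in p21-2 and no more than 0.11 in the others. Its other kept probes were dimmer and differed by 0.01 and 0.02 in the fit of all kept probes (adjusted p = 0.912 and 0.837). FAS and TNFRSF10A (the TRAIL receptor DR4) passed the background level on 4 and 2 of the 12 arrays. Their differences were 0.13 (adjusted p = 0.0682) and -0.05 (adjusted p = 0.575).

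In DNA repair and nucleotide supply, RRM2B rose and XPC fell. RRM2B is the p53-inducible small subunit of ribonucleotide reductase, and it read 7.77, 7.83, 7.73, 7.76, 7.84 and 7.86 with ECV. KLF4 values were 7.997, 8.004, 8.12, 8.11, 8.09 and 7.97, with no overlap. It rose by 0.25 (SE 0.0467, adjusted p = 0.00054), most in miR150-3 and miR150-4 (0.40 and 0.36). Its other kept probe differed by 0.07 (adjusted p = 0.361), and the mean of both gave 0.16. XPC, which recognises damage in nucleotide excision repair, read 8.85, 8.88, 8.89, 8.93, 9.002 and 9.18 with ECV. The KLF4 arrays read 8.68, 8.70, 8.87, 8.68, 8.96 and 8.79, and the ranges overlapped. XPC fell by 0.18 (SE 0.0563, adjusted p = 0.0220), lower in 6 of 6 lines. The XPC call ended without NT-3 with ECV (adjusted p = 0.0519), without miR150-4 with ECV (0.0559) or KLF4 (0.0732), and without p21-3 with ECV (0.0743) or KLF4 (0.0762). It also ended with cyclic loess (0.0753). DDB2, its partner in damage recognition, was between 7.60 and 7.93 and differed by 0.01 (adjusted p = 0.889).

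Of the 4 listed members of metabolism and redox control 2 were tested, TIGAR and SESN1, and both rose, as did 18.2% of all genes. TIGAR, which lowers glycolytic flux, read 9.07, 9.29, 9.33, 9.28, 9.28 and 9.01 with ECV. Under KLF4 the levels were 9.35, 9.55, 9.58, 9.69, 9.42 and 9.62, with no overlap. It rose by 0.33 (SE 0.067, adjusted p = 0.00122), from 0.14 in p21-2 to 0.61 in p21-3. SESN1, a sestrin that restrains mTORC1, read 7.74, 7.99, 7.84, 7.68, 7.78 and 7.79 with ECV. In the same lines the KLF4 values were 8.002, 7.91, 8.03, 7.996, 8.03 and 8.07, and 1 ECV value, that of NT-3, lay within the KLF4 range. It rose by 0.20 (SE 0.0557, adjusted p = 0.00852), in 5 of 6 lines, and in NT-3 the difference was -0.07. TP53I3, a quinone oxidoreductase, had 2 probes, neither of them kept, with levels up to 7.19.

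**Figure D2:**
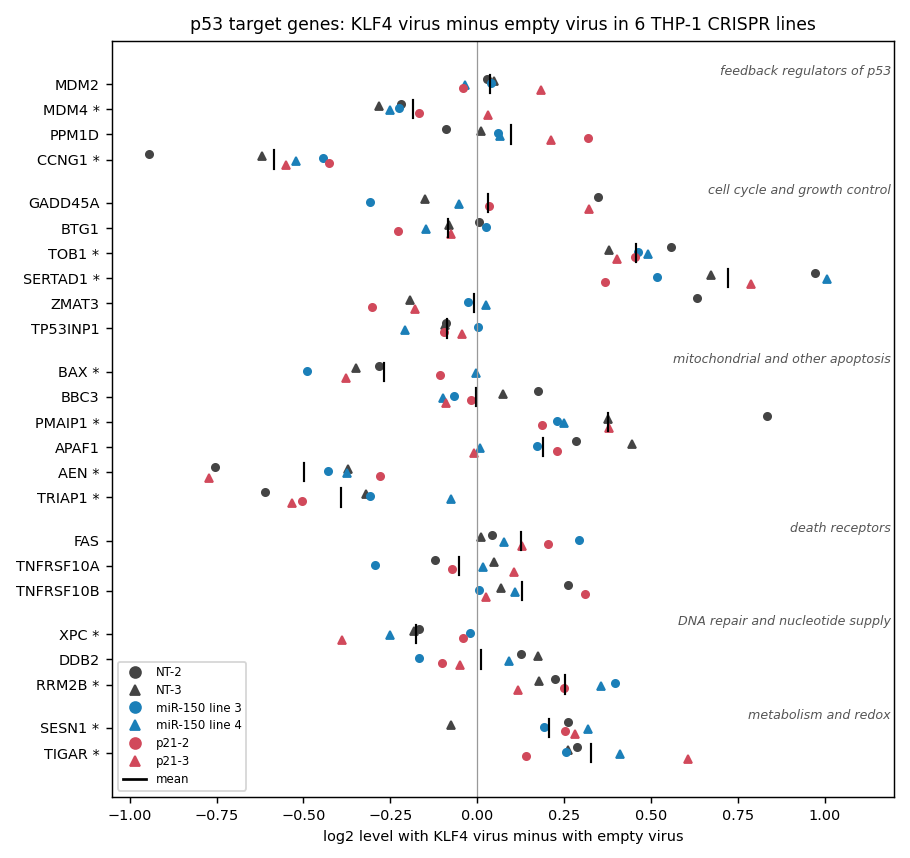
Each row is a tested p53 target, grouped by role, and each point is the log2 level with KLF4 virus minus that with empty virus in 1 of the 6 lines (colour, CRISPR target; circle or triangle, the first or second line of a target; black bar, mean). Genes with an asterisk passed the test for the mean. FAS and TNFRSF10B have all 6 points on one side of 0 but did not pass.

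**Figure D3:**
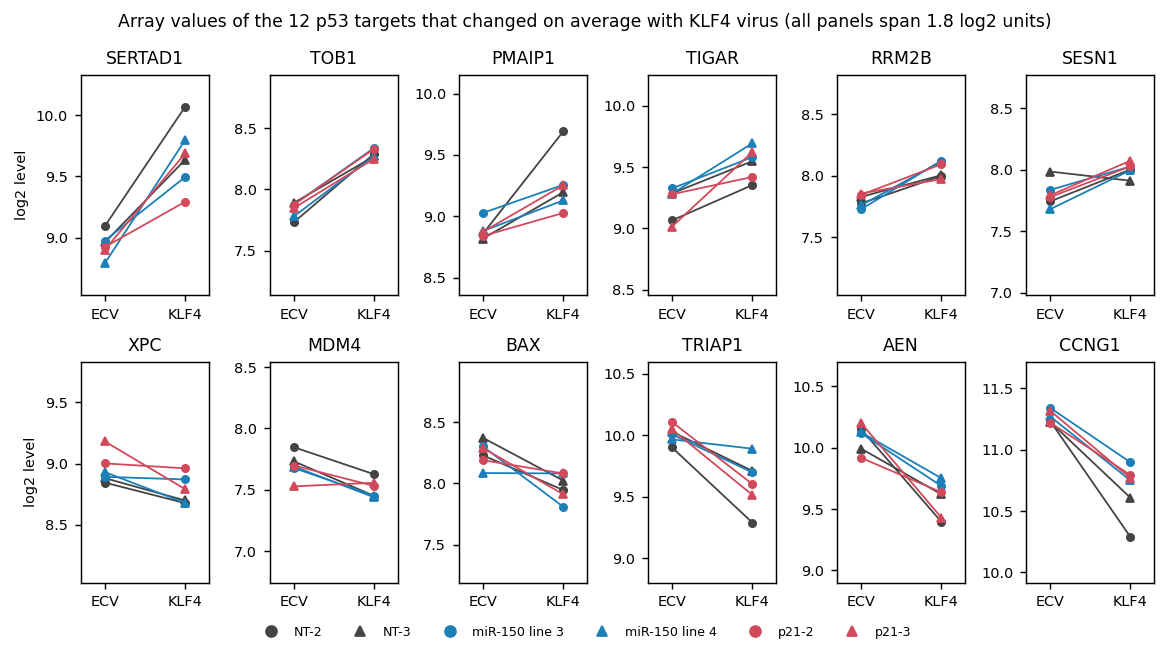
Log2 levels with empty virus (ECV) and KLF4 virus are joined by a line for each of the 6 CRISPR lines, for the 12 p53 targets that changed on average, ordered from the largest rise to the largest fall, with equal spans on all axes. The TOB1 lines run nearly parallel, while PMAIP1 and CCNG1 moved furthest in NT-2.

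The comparison of KLF4 with empty virus within each CRISPR target asks whether the response is seen in lines with constructs against p21 or miR-150 as in non-targeting lines. CDKN1A levels with ECV were 9.11 and 8.88 in p21-2 and p21-3 and 9.22 and 9.16 in NT-2 and NT-3, a difference of -0.19 that did not pass (adjusted p = 0.990). Small edits of a gene can leave its transcript measurable, so this level does not check the label. In non-targeting lines TOB1, SERTAD1 and PMAIP1 rose and CCNG1, AEN and TRIAP1 fell (6 of 24 members, against 26.8% of all genes, of which 11.9% higher and 14.9% lower). The log2 differences were 0.47, 0.82 and 0.61 for the rises and -0.78, -0.56 and -0.47 for the falls. Without NT-2 with KLF4 the PMAIP1 rise was 0.36 and still passed, and the TRIAP1 difference was -0.26 and did not (adjusted p = 0.125). The TRIAP1 call also ended without NT-3 with ECV (0.0946). Fitted from the 4 non-targeting arrays alone, the calls of PMAIP1 (adjusted p = 0.0599) and TRIAP1 (0.0978) ended.

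In miR-150 lines TOB1, SERTAD1 and RRM2B rose by 0.48, 0.76 and 0.38, and CCNG1 and AEN fell by 0.48 and 0.40, so 5 of 24 members were called, against 16.3% of all genes (8.07% higher and 8.25% lower). AEN was no longer called when any 1 of the 4 miR-150 arrays was left out (adjusted p from 0.0939 to 0.135), and with the mean of its kept probes its difference was -0.24 and did not pass (0.0504). That of CCNG1 ended without miR150-3 with ECV (0.0653) or miR150-4 with KLF4 (0.0708), that of RRM2B without miR150-3 with ECV (0.0555) and that of SERTAD1 without miR150-4 with KLF4 (0.0601). With the mean of its probes the RRM2B difference was 0.19 and did not pass (0.100).

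In p21 lines TOB1, SERTAD1, TIGAR and PPM1D rose by 0.43, 0.58, 0.37 and 0.27, and CCNG1, AEN and TRIAP1 fell by 0.49, 0.53 and 0.52, so 7 of 24 members were called, against 18.7% of all genes (8.72% higher and 9.96% lower). Without p21-3 with KLF4 the SERTAD1 difference was 0.38 (adjusted p = 0.213), that of TIGAR 0.27 (0.284), that of AEN -0.42 (0.0818) and that of TRIAP1 -0.48 (0.0796), and none passed. Without p21-3 with ECV the TIGAR difference was 0.24 (0.305), that of SERTAD1 0.57 (0.0906), that of AEN -0.38 (0.0813) and that of CCNG1 -0.44 (0.0511). Without p21-2 with ECV the calls of SERTAD1 (0.0817) and TRIAP1 (0.0670) ended. The TIGAR call also ended without either miR-150 array with ECV (0.0558 each). PPM1D kept its call when either NT array with KLF4 was left out, and lost it without any of the other 10 arrays, at adjusted p-values from 0.0590 to 0.233. In contrast, TOB1 passed in each of the 3 targets in all 12 such fits. The 3 within-target comparisons contrast different arrays but take their variance from the same fit of all 12 arrays, so their calls are not independent. Members also gained calls when an NT array with KLF4 was left out.

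Without NT-2 with KLF4, the non-targeting differences of APAF1 (0.48, adjusted p = 0.0249), TIGAR (0.37, 0.0410) and MDM4 (-0.34, 0.0302) passed, against 0.36, 0.28 and -0.25 with it. The mean over targets of APAF1 (0.23, adjusted p = 0.0196) also passed. Without NT-3 with KLF4, the non-targeting differences of ZMAT3 (0.66, adjusted p = 0.00045) and BAX (-0.35, 0.0343) passed, against 0.22 and -0.32 with it, and so did the mean of TNFRSF10B (0.16, 0.0344). Leaving out either array in turn, the differences of TIGAR in miR-150 lines (0.33, adjusted p = 0.0208) and of PMAIP1 (0.28, 0.0296) and SESN1 (0.27, 0.0395) in p21 lines passed with the same size as in the fit of all arrays.

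Whether the p53 targets respond differently in p21 lines was tested as a difference of the KLF4 effects. No member passed (limma, 0 of 24, with 0% of all genes called; before adjustment, 1 member and 707 genes had p under 0.05). The member was PPM1D, with a difference of 0.31 (95% interval 0.04 to 0.57, adjusted p = 0.833). For CCNG1 the KLF4 effect was 0.29 less negative in p21 lines (interval -0.02 to 0.61), and for PMAIP1 the difference was -0.32 (interval -0.73 to 0.09). Without NT-3 with KLF4, which leaves NT-2 as the lone array of its group, the differences of PMAIP1 (-0.57, adjusted p = 0.0296) and ZMAT3 (-0.90, adjusted p = 0.00282) passed, in a fit that called 575 of all genes. When changes were simulated, this test recovered 26% of the genes given a difference of 0.5 (log2) and 92% of those given 1, so smaller differences could be missed. The simulation gave each gene the same SD in every group, while the non-targeting arrays with KLF4 varied more (root mean square SD 0.192). Recovery in the data may therefore differ.

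Compared within a virus, no p53 target passed the test between p21 and non-targeting lines. With ECV 0 of 24 members passed (limma; 3 members and 657 of 12150 genes had p under 0.05 before adjustment), where 0.00823% of all genes were called. The 3 were BTG1 (0.31, 95% interval 0.12 to 0.50, adjusted p = 0.603), APAF1 (0.34, interval 0.03 to 0.66, adjusted p = 0.922) and XPC (0.23, interval 0.02 to 0.44, adjusted p = 0.922), all higher in p21 lines. BTG1 read 12.03 and 11.9995 in p21-2 and p21-3 against 11.70 and 11.72 in NT-2 and NT-3. For each of the 3 genes both p21 values lay above both NT values. How many of all genes separated in this way was not counted. With KLF4 0 of 24 passed (limma; 6 members and 1347 of 12150 genes had p under 0.05 before adjustment), where 0.0412% of all genes were called. CCNG1 (0.33, interval 0.11 to 0.56, adjusted p = 0.327), PPM1D (0.28, interval 0.10 to 0.47, adjusted p = 0.327) and BTG1 (0.19, interval 0.01 to 0.38, adjusted p = 0.449) were higher in p21 lines. ZMAT3 (-0.50, interval -0.94 to -0.06, adjusted p = 0.410), SERTAD1 (-0.36, interval -0.69 to -0.03, adjusted p = 0.422) and PMAIP1 (-0.30, interval -0.59 to -0.02, adjusted p = 0.443) were lower. Without NT-3 with KLF4, 5 of these 6 passed, all but BTG1: CCNG1 at 0.49 and PPM1D at 0.38 higher, and ZMAT3 at -0.94, SERTAD1 at -0.58 and PMAIP1 at -0.55 lower. That fit called 1434 of all genes and sets the p21 lines against the NT-2 array alone. Without NT-2 with KLF4 0 members passed.

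**Figure D4:**
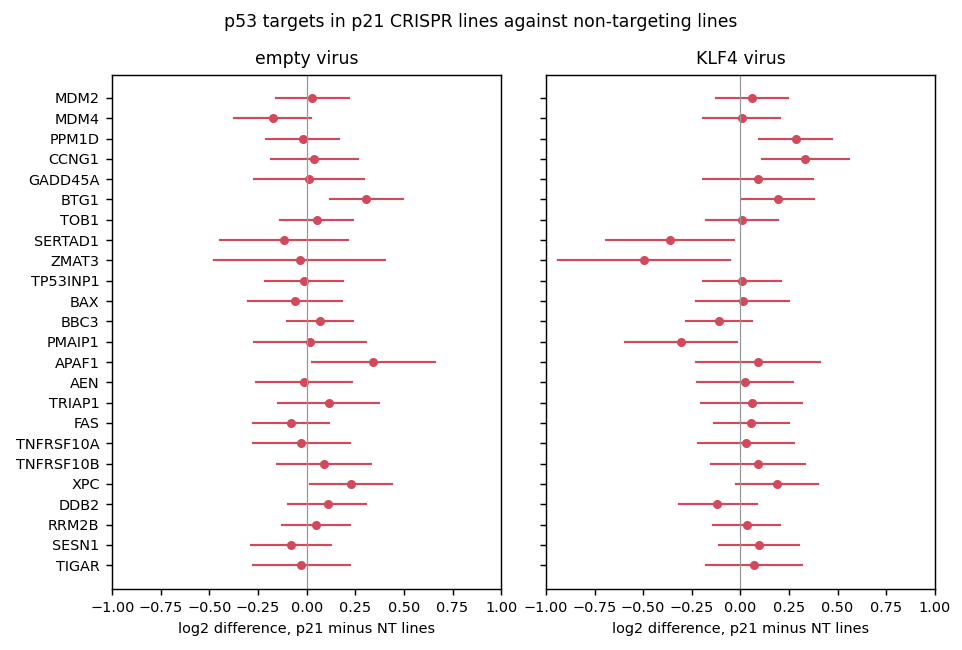
Points are the log2 differences of p21 minus non-targeting (NT) lines for the 24 tested p53 targets with empty virus (left) and KLF4 virus (right), and bars are 95% intervals from the limma fit, not adjusted for the number of genes. The bars of 3 genes exclude 0 on the left and those of 6 on the right, and none of these passed after adjustment.

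Other genes of the pathway were read from 3 lists, also chosen with earlier results of these data known. Of 19 tested regulators of p53, 2 rose and 8 fell with KLF4 on average, where 18.2% of all genes rose and 23.1% fell. The share called was 52.6%, against 41.3% of all genes, and the median log2 difference was -0.12. TP53BP1, an adaptor at DNA breaks, fell by 0.52 (SE 0.0589, adjusted p = 7.4e-06), and CDKN2A, whose ARF product holds MDM2 in check, fell by 0.44 (adjusted p = 0.00017). Whether the CDKN2A probe reads the transcript of ARF was not examined. PRKDC, the DNA-dependent protein kinase, fell by 0.39 (adjusted p = 6.5e-05) and the corepressor TRIM28 by 0.40 (adjusted p = 0.00012), each in 6 of 6 lines. The checkpoint kinase CHEK1 differed by 0.41 between p21 and non-targeting lines with KLF4 and did not pass (adjusted p = 0.263), nor did PPP1R13L, the p53 inhibitor iASPP (0.20, adjusted p = 0.449).

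Of 41 other reported p53 targets tested, 13 rose and 8 fell, where 18.2% of all genes rose and 23.1% fell. The share called was 51.2%, against 41.3% of all genes, and the median log2 difference was 0.01. Besides CDKN1A, the rises with the smallest p were FUCA1, a lysosomal fucosidase (1.11, adjusted p = 1.3e-07), IER5, an immediate early gene (0.81, adjusted p = 6.1e-08), and NINJ1, which ruptures the membrane of dying cells (0.69, adjusted p = 4.3e-06), each in 6 of 6 lines. CDKN1A was lower in p21 than in non-targeting lines with KLF4 by -0.84 (adjusted p = 0.221) and FUCA1 by -0.54 (adjusted p = 0.247), and neither passed. Of 20 cell cycle genes that p53 is known to repress through p21 and the DREAM complex, 4 rose and 3 fell. The share called was 35.0%, against 41.3% of all genes (18.2% higher and 23.1% lower), and the median was -0.03. The helicase subunit MCM5 fell by 0.49 (adjusted p = 1.2e-05) and CKS2, a CDK-binding protein, by 0.20 (adjusted p = 0.00826), while the mitotic kinase AURKA and the kinesin KIF23 rose by 0.22 (adjusted p = 0.00416) and 0.26 (adjusted p = 0.00584). KIF23 and the kinase TTK differed by 0.43 (adjusted p = 0.247) and 0.38 (adjusted p = 0.313) between p21 and non-targeting lines with KLF4, and neither passed.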

How the data were processed

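Total RNA of 12 THP-1 samples was measured on Illumina bead arrays. The values are log2 expression levels deposited by the authors, already normalized between arrays: each array has a median of 7.17. The method of background correction and normalization is not stated. A table of unnormalized intensities was not used, since its 24 value columns match no sample label. Probes were named through the platform annotation: 30113 had 1 symbol, 8 had several and 17202 were not listed, and 30074 matched the RefSeq gene table (GRCh38.p14).

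A probe was kept when above log2 7.26, the 95th percentile of the background mirrored about its commonest level, on at least 2 arrays (22576 of 47323 probes). A gene was read from its brightest kept probe, so that levels of different genes are not compared. limma 3.58.1 in R 4.3.3 (lmFit, eBayes) fitted 1 mean per group over 12 arrays, with 6 residual degrees of freedom. P-values were adjusted by the Benjamini-Hochberg method over 12150 genes, and an adjusted p under 0.05 was called. The 4 KLF4 effects and the comparisons of p21 with non-targeting lines share arrays. The fit was tested on simulated data. The number of arrays limits the precision.

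The labels give both arrays of a line the same name, which pairs them. Across genes their deviations correlated at 0.0957 (non-targeting lines), -0.0493 (miR-150) and 0.0678 (p21). The members and gene lists were chosen with earlier results of these data known. All 31 members are named, with array values for those called in any comparison. Of each other list, the text names the 4 genes with the smallest p for the mean KLF4 effect and the 2 with the smallest p between p21 and non-targeting lines under KLF4. Alternatives covered background, normalization, filter, probe choice, variance model, array weights, the line as a block, the groups fitted and each array left out. A higher background level (7.29, the 97.5th percentile) was chosen after seeing the data.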

Additional observations from a re-analysis of the deposited data

Results flagged for a closer look

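For 3 p53 targets the KLF4 minus ECV difference went one way in both lines of a target and the other way in both lines of another. How many of all genes did so was not counted, so the number is not a result about p53 targets. GADD45A was lower with KLF4 in both miR-150 lines (-0.31 and -0.05) and higher in both p21 lines (0.03 and 0.32), a difference between the targets of 0.36 on the log2 scale that was not tested. BBC3 was higher in both non-targeting lines (0.17 and 0.07) and lower in both miR-150 lines (-0.07 and -0.10), a difference of -0.21 that was not tested. BBC3 was also lower in both p21 lines (-0.02 and -0.09), a difference from non-targeting lines of -0.18 that did not pass limma's test of the difference (adjusted p = 0.842). DDB2 was higher in both non-targeting lines (0.12 and 0.17) and lower in both p21 lines (-0.10 and -0.05), a difference of -0.22 that did not pass that test (adjusted p = 0.840). None of these 3 genes was called with KLF4 on average.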

How the results depend on the processing

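Averaged over the 3 targets, 6 to 9 p53 targets were called higher and 5 to 7 lower under the other settings, and 6 to 7 and 5 to 6 with 1 array left out. No called value changed sign. In non-targeting lines the count called higher was 6 with cyclic loess (3 in the report) and 3 to 5 with 1 array left out, and the count called lower was 5 with trend and robust variance. Over the other settings 2 to 6 were higher and 2 to 5 lower. In miR-150 lines the count called lower was 1 with the mean of kept probes and 0 to 2 with 1 array left out. In p21 lines the count called higher was 2 with normexp and 1 to 6 with 1 array left out, and the count called lower was 1 to 3. Leaving out arrays gave 0 to 2 higher and 0 to 3 lower between p21 and non-targeting lines under KLF4, and 0 to 2 lower for the difference of KLF4 effects; the calls came without NT-3 with KLF4. With the line as a replicate block, which pairs the arrays, 7 members were called higher and 6 lower on average, 4 and 3 in non-targeting, 3 and 2 in miR-150 and 3 and 3 in p21 lines, and 0 in the rest; PPM1D in p21 lines was the call it ended. Among the values of called members under alternatives, 630 stayed on their side of the threshold and 48 lost it; the causes were not tested.

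Counts over all genes moved more. Every kept probe gave 7598 called for the mean KLF4 effect against 5013, with more features tested. In non-targeting lines 3251 genes became 1429 from their own groups alone and 2023 without NT-3 with ECV. Leaving out 1 of its own arrays gave as few as 919 of 1983 in miR-150 and 1091 of 2269 in p21 lines. For p21 against non-targeting lines the counts ran from 0 to 28 with ECV (1 in the report) and from 0 to 1434 with KLF4 (5), and for the difference of KLF4 effects from 0 to 575 (0). In simulated data of 12150 genes, a log2 change of 0.5 was recovered for 97% of genes in the mean KLF4 effect, for 62% to 69% within a target or virus, and for 26% in the difference of KLF4 effects. Each simulated gene had the same SD in every group, unlike the data. Each simulation changed 100 genes per size, while 41.3% of all genes were called for the mean KLF4 effect in the data. The adjusted p depends on the share of genes that change, so recovery in the data may differ.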
